A study of Mus musculus with 8 samples.

Results

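The stathmins Stmn1, Stmn2, Stmn3 and Stmn4, the microtubule-associated proteins Map1a, Map1b, Map2, Mapt and Map6, and the growth cone protein Gap43 were followed in RNA sequencing of the mouse auditory nerve. The 10 genes were taken by their symbols, and all 10 were found among the 15035 genes of the deposited table. Stmn4 was chosen by its lower normalized counts in the mutant libraries, the same comparison as here, so its values are described without a test. The other 9 were added as its relatives or as fellow proteins of the neuronal microtubule. Auditory nerves came from wild-type mice (4 libraries, numbered 1 to 4) and from mice that the labels call Mef2c heterozygotes, Mef2c being a MADS-box transcription factor (4 libraries, numbered 5 to 8). All mice were at postnatal day 21, and each library was made from the nerves of both cochleas (2 per mouse) of a single animal. Both groups were otherwise untreated as far as the labels say. The labels give neither strain, sex nor litter, and they do not say which Mef2c allele was used.

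Axons and dendrites are filled with microtubules, hollow polymers of tubulin that grow and shrink at their ends. Stathmins bind free tubulin and promote shrinkage, and phosphorylation switches them off. Microtubule-associated proteins such as MAP1A, MAP1B, MAP2, tau (from Mapt) and MAP6 bind along the polymer and stabilise it, MAP2 mainly in dendrites and cell bodies and tau mainly in axons. GAP43 is a membrane protein of growing axon tips. In the auditory nerve the spiral ganglion neurons are the main neurons, with Schwann cells around their peripheral part and oligodendrocytes around the part next to the brainstem. Several stathmins and tau are also known from oligodendrocytes, so such transcripts need not come from neurons.

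The members of the stathmin family differ most at their start, so the first 90 coding bases of each principal transcript are shown, with every cysteine codon in capitals. Stmn2, Stmn3, Stmn4 and Gap43 are anchored to membranes through lipids attached to cysteines near the start of the protein, while Stmn1 is cytosolic. The first 30 coding bases of Gap43 are given for comparison.
Stmn1: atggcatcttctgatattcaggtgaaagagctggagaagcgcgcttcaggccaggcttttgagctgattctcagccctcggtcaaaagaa
Stmn2: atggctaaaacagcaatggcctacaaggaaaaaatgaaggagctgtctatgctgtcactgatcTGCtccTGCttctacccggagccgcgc
Stmn3: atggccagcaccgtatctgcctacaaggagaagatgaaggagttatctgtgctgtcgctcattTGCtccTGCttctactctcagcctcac
Stmn4: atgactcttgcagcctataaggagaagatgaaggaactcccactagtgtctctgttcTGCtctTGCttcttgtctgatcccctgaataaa
Gap43: atgctgTGCTGTatgagaagaaccaaacag
Stmn2 and Stmn3 carried cysteine codons at codons 22 and 24, counted from the start codon, and Stmn4 carried them at codons 20 and 22. Stmn1 had 0 cysteine codons in its whole coding sequence of 450 bases. In Gap43 the cysteine codons were codons 3 and 4. Between pairs of stathmins, 69.3% to 73.5% of the aligned coding bases were identical. Stmn3 and Stmn4 shared 0 stretches of 50 bases with the annotated transcripts of any other gene. Stmn1 shared 18.9% of its 50-base stretches with 2 other annotated genes, mainly Gm11223, and neither of those 2 is in the table, so part of the Stmn1 signal depends on how the authors' counting treated such reads. Stmn2 shared 0.893% of its 50-base stretches with 224 other genes, 49 of 50 such stretches on the opposite strand.

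On the mouse genome (GRCm38, the assembly also called mm10, gene models of GENCODE M21) the 4 stathmin genes lie on 4 chromosomes: Stmn1 at chr4:134468320-134473843, Stmn2 at chr3:8509360-8561606, Stmn3 at chr2:181306459-181314500 on the minus strand and Stmn4 at chr14:66344296-66361680. Map1a lies at chr2:121289600-121310832, Map1b at chr13:99421446-99516540 on the minus strand, Map2 at chr1:66175273-66442583, Mapt at chr11:104231390-104332090, Map6 at chr7:99267447-99337137 and Gap43 at chr16:42248442-42340651 on the minus strand. All 10 are protein-coding, and the values are per gene, so splice forms of tau, MAP2 or Stmn4 were not told apart.

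Reads were estimated at 13363262 to 21507345 per library, and 3 reads correspond to 2.37 to 3.89 normalized counts, below the lowest value of any member. Mef2c itself had 402.2 to 508.7 normalized counts in wild type and 583.3 to 735.1 in the libraries labelled heterozygote. Its log2 fold change was 0.53 (limma-trend adjusted p 0.186). With the allele unknown, counts per gene cannot check the label, so all directions reported here follow the labels alone. Wild-type library 1 and heterozygote-labelled library 5 had 12 and 7.6 normalized counts of Xist, against 5175 to 8615 in the others. Of 14870 genes tested with limma-trend on log2(value + 1), 12 (0.0807%) had a Benjamini-Hochberg adjusted p under 0.05, with 11 (0.074%) lower and 1 (0.00672%) higher in the libraries labelled heterozygote. Without adjustment 2090 genes (14.1%) had a p under 0.05, 7.34% lower and 6.72% higher. The groups did not overlap for 7.26% of genes, 3.86% lower and 3.4% higher.

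Stmn4, the stathmin whose protein sits on Golgi and vesicle membranes, was lower in every library labelled heterozygote. Its wild-type libraries had 2313, 2054, 1768 and 2110.1 normalized counts (libraries 1 to 4). The heterozygote-labelled libraries had 1081, 1210.2, 1177 and 1013. The groups did not overlap, and the gap between them, from 1768 down to 1210.2, was wider than the range within either group. The means were 2061 ± 225 and 1120.15 ± 90.3 (SD, n = 4 each), and the log2 fold change was -0.88 (SE 0.11). This is the value that chose the gene, and 3.86% of all tested genes were likewise lower without overlap. In bulk tissue, fewer cells of a type and less RNA per cell cannot be told apart.

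Stmn1, the cytosolic founder of the family and also a gene of dividing cells, was lower in the same direction. It had 7082, 5419.7, 4255 and 7341 normalized counts in wild type and 4103, 3163, 3768 and 3073 in the libraries labelled heterozygote. The groups did not overlap, but wild-type library 3 came within a small margin of heterozygote-labelled library 5. The log2 fold change was -0.75 (SE 0.17) and the means were 6024 ± 1455 and 3526 ± 493 (SD, n = 4 each). With limma-trend its unadjusted p was 0.000736 and its Benjamini-Hochberg adjusted p 0.162, so it did not pass. Without wild-type library 3 its limma-trend adjusted p was 0.0142, in a fit that called 1.49% of all genes. The authors' deposited table gives Stmn1 an FDR of 0.00224, and in it 1.61% of genes have an FDR under 0.05, 0.938% with lower values in the libraries labelled heterozygote.

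Stmn3, a neuronal stathmin of Golgi and axon, was the most abundant of the 4. In wild type it had 19542, 13913, 13341 and 17829 normalized counts, and the libraries labelled heterozygote 13447, 11384, 9736 and 8701. Here the groups met, since heterozygote-labelled library 5 lay just above wild-type library 3. The log2 fold change was -0.58 (SE 0.16), and the limma-trend adjusted p was 0.222. The FDR of Stmn3 in the authors' deposited table was 0.0337, so this gene and Stmn1 are called there and not here. With the leading component of the residual variation as a covariate, a fit that called 3.87% of all genes, Stmn1 and Stmn3 had limma-trend adjusted p of 0.0268 and 0.0410.

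Stmn2, the stathmin of growing and regenerating axons, was nearly level. It had 3780.4, 3395, 4135 and 3184 normalized counts in wild type against 3451, 3558, 3061 and 3062 in the libraries labelled heterozygote. The groups overlapped between 3184 and 3558 normalized counts. Heterozygote-labelled libraries 7 and 8 lay below all wild-type libraries, and wild-type libraries 1 and 3 lay above all heterozygote-labelled ones. The log2 fold change of Stmn2 was -0.14 with a 95% interval from -0.36 to 0.09 (limma-trend adjusted p 0.541). A fall to 0.778 of the wild-type level lies at the edge of this interval. The fall of Stmn4 lies outside it, but that fall is the value for which Stmn4 was chosen. Of the 9 members other than Stmn4, 0 passed an adjusted p of 0.05 with limma-trend and 0 with limma-voom. Without adjustment 2 of the 9 had a p under 0.05, Stmn1 and Stmn3, both lower, against 7.34% of all genes. The 1 member of the 9 without overlap between groups was Stmn1, against 7.26% of all genes.

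**Figure D1:**
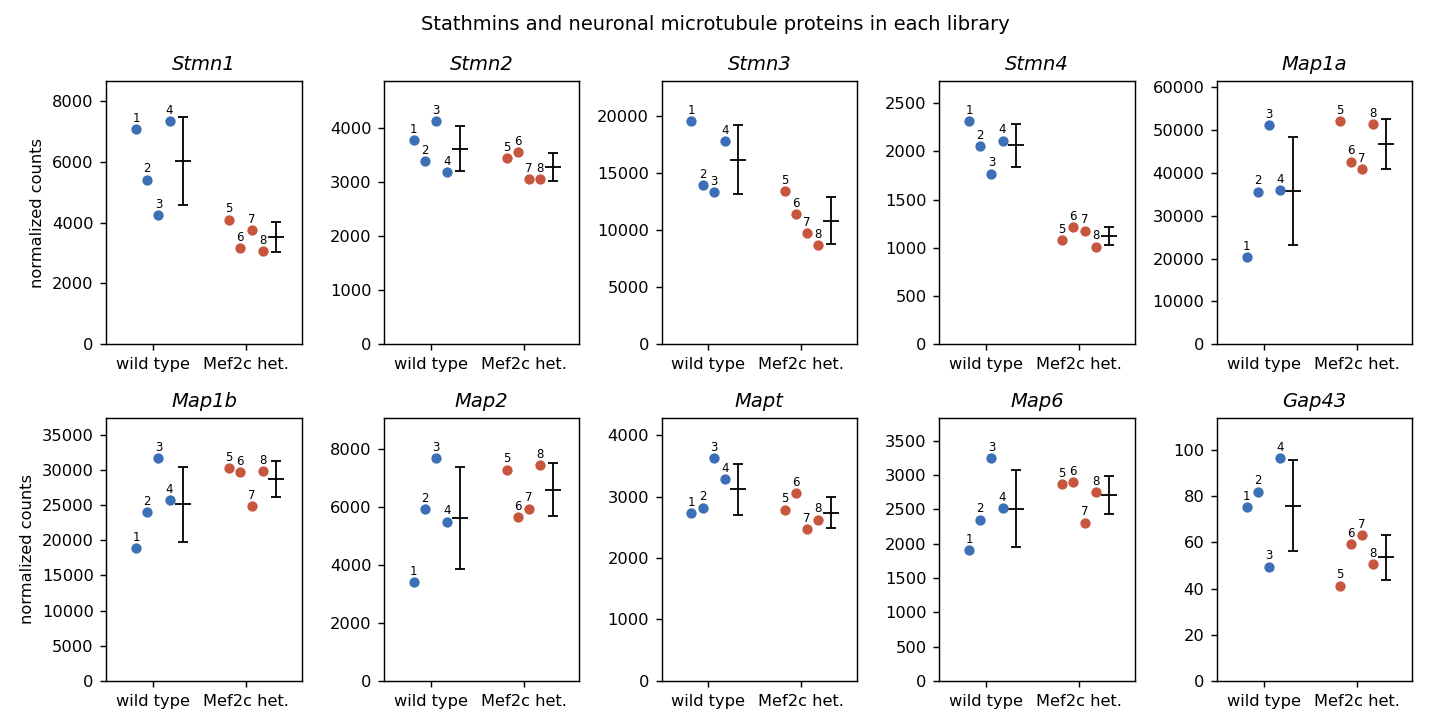
Normalized counts of each member (vertical axes, each from 0) in wild-type libraries 1 to 4 (blue) and in the libraries labelled Mef2c heterozygote, 5 to 8 (red), with the mean and SD of each group in black. Stmn4 and Stmn1 show no overlap between groups, the groups overlap in part for Stmn2, and wild-type library 1 is the lowest point for Map1a, Map1b, Map2 and Map6.

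The proportions of the family were compared per kilobase of the longest transcript, as shares of the summed level of the 4 stathmins. Stmn3 made up 63.2% ± 1.36 of the family in wild type and 64.8% ± 2.98 in libraries labelled heterozygote (4 libraries each, SD), and Stmn1 25.1% ± 2.34 and 22.9% ± 2.39. Stmn2 held 4.88% ± 1.29 and 6.64% ± 0.69, and Stmn4 6.81% ± 0.66 and 5.70% ± 0.79. The shares of Stmn2 depend on the transcript taken, since with its principal transcript of 2073 bases its wild-type level was 1748 in place of 1062 normalized counts per kilobase, above Stmn4 at 1582. On the longest transcripts the ranges of the groups met for Stmn2 and Stmn4 (3.72% to 6.63% against 5.77% to 7.35%, and 6.18% to 7.60% against 4.53% to 6.23%). The family thus kept Stmn3 and Stmn1 as its main members in all 8 libraries. Set against Stmn2 in the same library, Stmn4 had a ratio of 0.428 to 0.663 in wild type and of 0.313 to 0.385 in the libraries labelled heterozygote. This ratio includes the fall for which Stmn4 was chosen and was not tested.

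Of the 5 microtubule-associated proteins, 4 had positive log2 fold changes and Mapt a negative one, and none passed the test. Map1a, for a protein of mature axons and dendrites, had 20339.5, 35601, 51069 and 35960.1 normalized counts in wild type and 52059.6, 42610.1, 40952 and 51397 in the libraries labelled heterozygote. All heterozygote-labelled libraries lay above wild-type libraries 1, 2 and 4, and wild-type library 3 lay among them. The log2 fold change was 0.45 (SE 0.23), with a limma-trend adjusted p of 0.390. Without wild-type library 1 the log2 fold change of Map1a was 0.21. Without wild-type library 3 it was 0.65 (limma-trend adjusted p 0.0919). Map1a shared 1.83% of its 50-base stretches with Ppip5k1, all of them on the opposite strand, and whether counting used the strand is not given in the sources used here.

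Map1b, for the embryonic relative of MAP1A that persists in growing and peripheral axons, showed a smaller difference of the same sign. Its values were 18899, 23987, 31691 and 25692 normalized counts in wild type and 30254, 29679, 24840.2 and 29776 in the libraries labelled heterozygote. The heterozygote-labelled range lay wholly inside the wild-type range. The log2 fold change was 0.21 (limma-trend adjusted p 0.533), and it was 0.08 without wild-type library 1. Map2, for the dendritic MAP, had 3412, 5933, 7708 and 5503 normalized counts in wild type and 7301, 5673, 5955 and 7466 in the libraries labelled heterozygote. Again the heterozygote-labelled libraries lay inside the wild-type range. Its log2 fold change of 0.28 (limma-trend adjusted p 0.539) was 0.05 without wild-type library 1.

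Mapt, for the axonal protein tau, was the 1 member of this group with a negative sign. It had 2737, 2819.9, 3629.8 and 3289 normalized counts in wild type and 2788, 3058, 2470.0 and 2623 in the libraries labelled heterozygote. The groups overlapped, and the log2 fold change was -0.18 with a 95% interval from -0.43 to 0.06 (limma-trend adjusted p 0.454). Map6, for a protein that keeps microtubules stable in the cold, had 1904, 2349, 3249.5 and 2521 normalized counts in wild type and 2871, 2899.7, 2305 and 2751 in the libraries labelled heterozygote. The heterozygote-labelled libraries lay inside the wild-type range once more, with a log2 fold change of 0.13 (limma-trend adjusted p 0.687). Without wild-type library 1 it was 0.01.

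Within the 5 MAP genes, on the longest transcripts, tau took a smaller share of the per-kilobase total in every library labelled heterozygote. The share of Mapt was 10.9%, 7.66%, 7.21% and 8.65% in wild type and 5.74%, 7.10%, 6.31% and 5.48% in the libraries labelled heterozygote. Map1a held 36.0% to 45.1% and 44.0% to 47.7%, and Map2 11.4% to 13.5% and 11.1% to 13.1%. The lowest wild-type share of Mapt, 7.21%, lay close to the highest heterozygote-labelled one, 7.10%. With its principal transcript of 1362 bases its wild-type level was 2290 in place of 594 normalized counts per kilobase. Shares on that length were not computed. The reading of the share of tau was chosen after the values were seen and was not tested.

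Gap43 was the least abundant member. Its wild-type libraries had 75.3, 82.0, 49.5 and 96.6 normalized counts and the libraries labelled heterozygote 41.3, 59.2, 63.1 and 50.6. Wild-type library 3 lay among the heterozygote-labelled libraries. The log2 fold change was -0.47 (SE 0.30, the widest of the 10 members), with a limma-trend adjusted p of 0.478. Its 95% interval ran from -1.12 to 0.18.

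Promoter sequences were matched for 4 of the 10 members in RefSeq (build GRCm38.p6). They are shown because these were the only members matched, and not for the direction of their change. The 3 MAP genes had positive and Stmn3 a negative log2 fold change, and none passed the test. A link between these windows and direction was not tested. Each window runs from 250 bases before to 50 bases after the annotated start, with GGGCGG on either strand, the core of a GC box, in capitals.
Stmn3, chr2:181314451-181314750, minus strand: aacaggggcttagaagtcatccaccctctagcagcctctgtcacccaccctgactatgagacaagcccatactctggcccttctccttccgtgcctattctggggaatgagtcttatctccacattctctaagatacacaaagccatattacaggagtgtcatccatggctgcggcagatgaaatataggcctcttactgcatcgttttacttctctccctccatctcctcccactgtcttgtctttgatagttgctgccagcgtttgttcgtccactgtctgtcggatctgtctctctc
Map1a, chr2:121289352-121289651, plus strand: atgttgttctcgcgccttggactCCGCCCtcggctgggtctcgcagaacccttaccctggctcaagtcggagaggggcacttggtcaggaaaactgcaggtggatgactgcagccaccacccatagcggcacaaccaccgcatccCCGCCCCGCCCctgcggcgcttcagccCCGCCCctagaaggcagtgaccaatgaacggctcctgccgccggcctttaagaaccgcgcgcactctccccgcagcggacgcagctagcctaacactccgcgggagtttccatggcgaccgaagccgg
Map1b, chr13:99516553-99516852, minus strand: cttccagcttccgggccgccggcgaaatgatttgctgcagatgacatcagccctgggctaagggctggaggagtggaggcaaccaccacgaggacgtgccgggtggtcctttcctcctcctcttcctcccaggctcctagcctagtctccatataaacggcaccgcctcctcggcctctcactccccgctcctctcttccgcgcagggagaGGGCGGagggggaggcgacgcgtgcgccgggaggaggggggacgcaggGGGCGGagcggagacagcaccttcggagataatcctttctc
Map2, chr1:66175079-66175378, plus strand: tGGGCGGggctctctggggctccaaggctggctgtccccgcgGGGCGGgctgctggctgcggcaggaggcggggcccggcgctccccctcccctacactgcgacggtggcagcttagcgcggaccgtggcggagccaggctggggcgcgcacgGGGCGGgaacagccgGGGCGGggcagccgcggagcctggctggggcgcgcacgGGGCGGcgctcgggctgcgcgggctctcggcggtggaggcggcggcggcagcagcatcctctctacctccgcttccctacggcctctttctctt
GGGCGG occurred 4 times in the Map1a window, 2 times in that of Map1b, 5 times in that of Map2 and 0 times in that of Stmn3, and 35.7% of 32851 windows of the same length hold it on either strand. G and C made up 65.7% of the Map1a and Map1b windows, 77.7% of the Map2 window and 49.7% of the Stmn3 window, against a median of 52.7%. CCAAT was found in the Map1a window (37.4% of windows hold it) and TATAAA in the Map1b window (13.6%). TGACGTCA and the MEF2 consensus, both searched on both strands, were in none of the 4 windows and in 1.79% and 3.19% of all windows. These are matches of letters in short windows and describe no binding.

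For Map1b, Map2 and Map6 the range within wild type covered that of the libraries labelled heterozygote. Wild-type library 1 was the lowest library for 4 of the 5 MAP genes and the highest for Stmn3 and Stmn4. Wild-type library 3 was the highest library for 4 of the 5 MAP genes and also for Stmn2. Averaged over genes as log2 deviations from each gene's own mean, the MAP genes minus the stathmins stood at -1.05, -0.29, 0.22 and -0.41 in wild-type libraries 1 to 4 and at 0.34, 0.34, 0.22 and 0.64 in libraries 5 to 8. Wild-type library 3 therefore lay among the heterozygote-labelled libraries in this balance. The stathmin average includes Stmn4, which was chosen for its lower values in the libraries labelled heterozygote. A difference between groups in this balance is thus partly given by that choice, and the balance without Stmn4 was not computed.

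These deviations ran beside a trend over all genes with transcript length. Per doubling of length, a library's deviation moved by -0.21, -0.03, 0.07 and -0.10 in wild-type libraries 1 to 4 and 0.03, 0.05, 0.04 and 0.15 in libraries 5 to 8. The longest annotated transcripts of Stmn1, Stmn3, Stmn4 and Gap43 measure 1060, 1136, 1361 and 1420 bases, that of Stmn2 3413, and those of Map6, Mapt, Map2, Map1b and Map1a 4920, 5253, 6258, 11808 and 11825 bases. After a correction of each library for length, the log2 fold changes were -0.54 for Stmn1, -0.39 for Stmn3 and -0.72 for Stmn4. They were 0.17 for Map1a, 0.12 for Map2, -0.07 for Map1b and 0.03 for Map6. The 3 stathmins with short transcripts thus stayed negative, while Map1b changed sign. Mapt moved to -0.30 and Stmn2 to -0.16, and neither passed (limma-trend adjusted p 0.310 and 0.592).

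**Figure D2:**
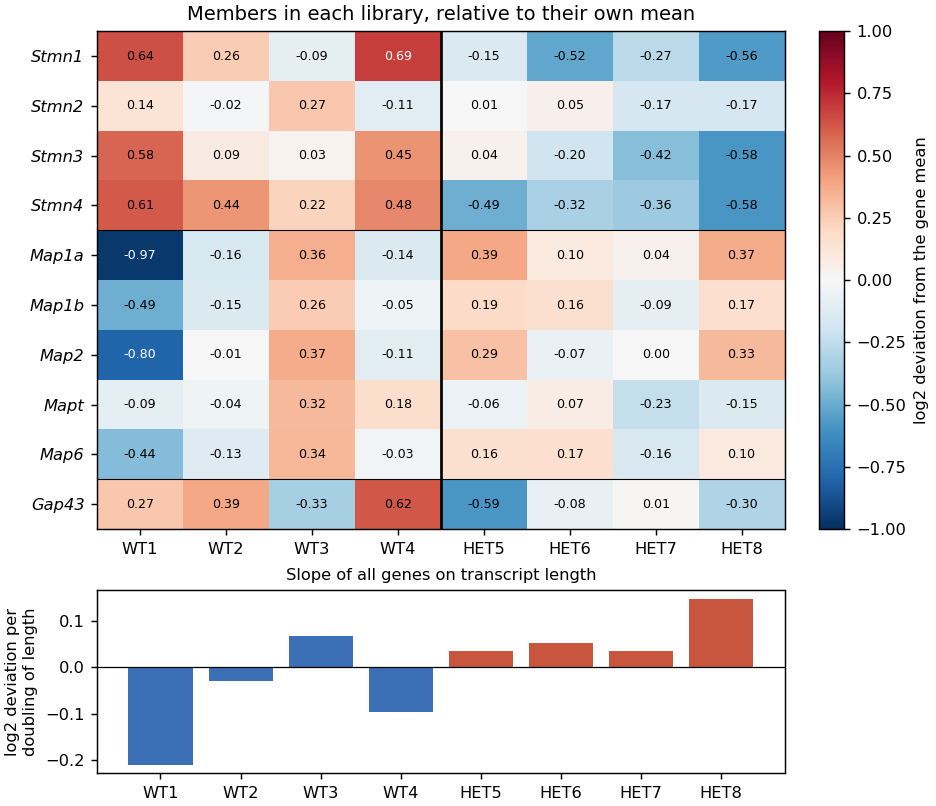
Top, log2(value + 1) of each member in each library minus that gene's mean over all 8 libraries (colour and number), with wild-type libraries (WT1 to WT4) left and libraries labelled heterozygote (HET5 to HET8) right of the line. Bottom, the slope of all genes' deviations per doubling of transcript length in the same libraries, from -0.21 in wild-type library 1 to 0.15 in heterozygote-labelled library 8.

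**Figure D3:**
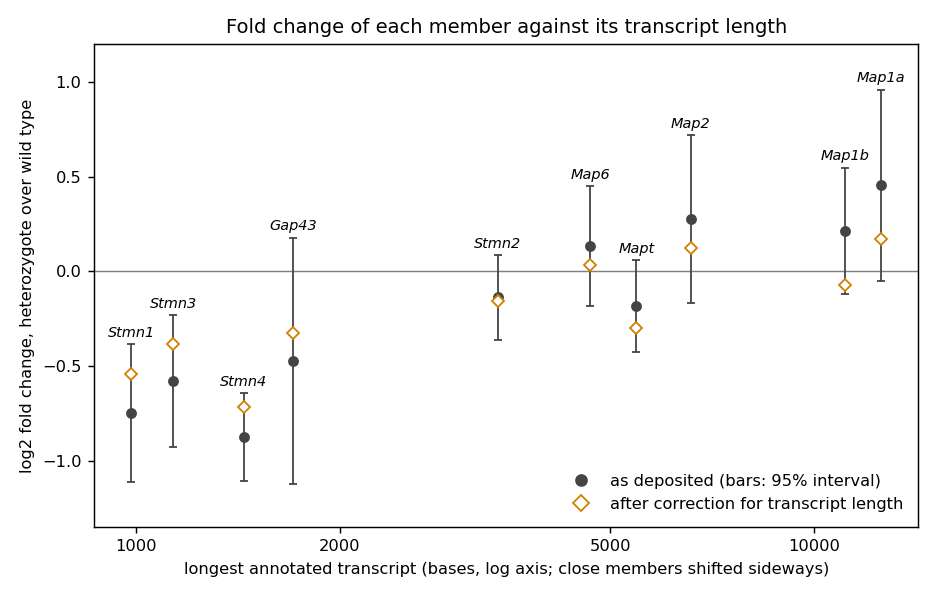
Log2 fold change of each member (vertical axis) against the length of its longest transcript in bases (log axis), as deposited with 95% intervals (filled) and after correction for length (open diamonds). Stmn4 moves from -0.88 to -0.72 and Map1a from 0.45 to 0.17.

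Cell type markers were read beside the members. The oligodendrocyte list had 11 of 12 genes lower in the libraries labelled heterozygote, 5 of them past the limma-trend threshold, with a median log2 fold change of -1.18 against 0.02 over all tested genes. Its summed level was 213448 to 283365 normalized counts in wild type and 111982 to 146638 in the libraries labelled heterozygote, without overlap. No marker of the list was at 0 in any library, and Opalin, at 3.6 to 27.3 normalized counts, was the 1 gene without a negative sign. The transcription factors Olig1 and Olig2 had log2 fold changes of -1.28 and -1.40. The 6 markers of precursors and newly formed oligodendrocytes summed to 8052 to 11115 in wild type and 6608 to 7528 in the libraries labelled heterozygote, a sum to which Bcas1 gave the most in every library. Within that list Bcas1, Gpr17 and Enpp6 had log2 fold changes of -0.68, -1.31 and -0.56, and the precursor genes Pdgfra and Cspg4 had -0.06 and 0.36, with Bmp4 at 0.08. Cspg4 was higher without overlap between groups, against 3.4% of all tested genes. Bcas1, Gpr17 and Enpp6 were lower without overlap, against 3.86%, and none of the 6 passed the test. These lists were chosen with earlier results of the same libraries known.

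Stmn4 was set against the oligodendrocyte sum in each library. Among wild-type libraries both were ordered 1, 4, 2, 3 from high to low. Among the libraries labelled heterozygote the orders differed, 6, 7, 5, 8 for Stmn4 and 7, 6, 8, 5 for the sum. Per 1000 counts of oligodendrocyte markers, Stmn4 had 8.16, 8.77, 8.28 and 8.44 counts in wild type and 9.65, 9.03, 8.03 and 7.90 in the libraries labelled heterozygote, so on this scale the groups overlapped. Part of that list, such as Mbp, Mag and Cnp, is also expressed by Schwann cells. Against the 7 markers known from oligodendrocytes and not from Schwann cells (Mog, Mobp, Klk6, Opalin, Ermn, Olig1 and Olig2), a choice made after the values were seen, Stmn4 had 99.95 to 106.1 counts per 1000 in wild type and 122.4 to 258.7 in the libraries labelled heterozygote. On that scale the order of the groups was turned around. This was not particular to Stmn4, since all other members except Stmn1 were also higher there without overlap. The 7 markers themselves summed to 16871 to 21804 normalized counts in wild type and 4179 to 9685 in the libraries labelled heterozygote. Per 1000 counts of 17 neuron markers, Stmn4 had 5.51 to 9.42 counts in wild type and 3.43 to 4.51 in the libraries labelled heterozygote. The part of oligodendrocyte number in the level of Stmn4 was not tested.

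The summed neuron markers overlapped between the groups. All 17 were present in every library, and their sum was 245407 to 321059 normalized counts in wild type and 260774 to 314809 in the libraries labelled heterozygote. The median log2 fold change of the list was 0.00, with 9 genes higher and 8 lower and none past the threshold. Pvalb, for the calcium-binding protein parvalbumin, had the smallest unadjusted p of the list, at a log2 fold change of -0.57 (limma-trend adjusted p 0.259). Gata3 had -0.34 and Calb2 -0.31. Tubb3, the neuronal tubulin, had a log2 fold change of -0.06, and Snap25, of the synaptic release machinery, of 0.04. Per 1000 neuron marker counts Stmn2 had 10.5 to 15.4 counts in wild type and 10.96 to 12.8 in the libraries labelled heterozygote, and Mapt 10.2 to 11.3 and 8.86 to 11.03. Stmn1 on this scale had 13.3 to 28.9 and 11.4 to 14.4, and Stmn3 41.6 to 79.6 and 33.2 to 42.7, so both overlapped between groups.

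**Figure D4:**
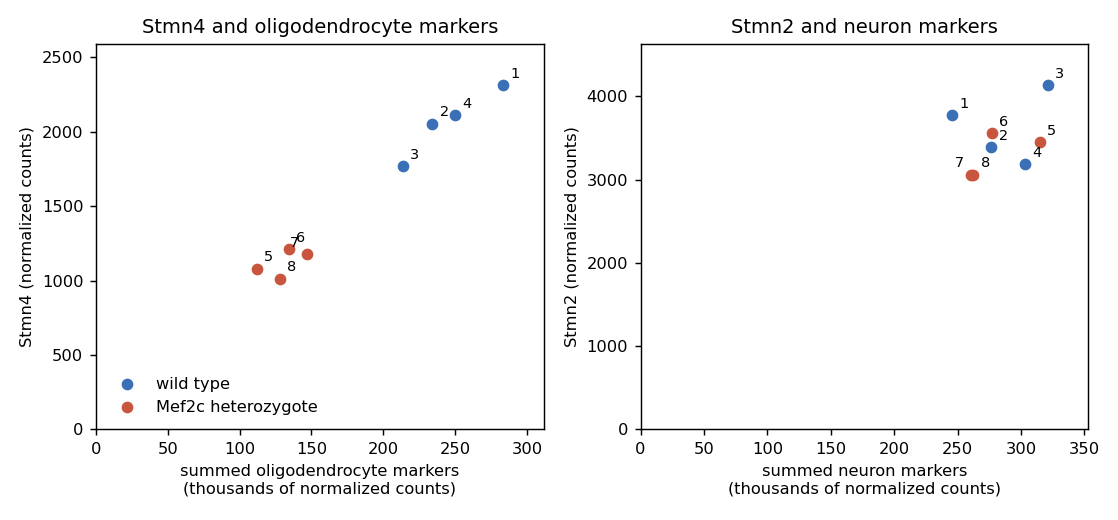
Normalized counts of Stmn4 against the summed oligodendrocyte markers (left) and of Stmn2 against the summed neuron markers (right), 1 point per library, numbered as in the labels, wild type in blue and the libraries labelled heterozygote in red. On the left the groups lie apart on both axes (213448 to 283365 against 111982 to 146638 summed marker counts), and on the right they mix.

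Among other cell types, neutrophil markers showed the largest shift. S100a8, S100a9 and Ngp were higher with no overlap between groups, against 3.4% of all tested genes. Their log2 fold changes were 4.09, 3.62 and 3.73, and none of them passed (limma-trend adjusted p 0.0763, 0.0920 and 0.0920). Myelinating Schwann cell markers summed to 112053 to 144052 normalized counts in wild type and 102304 to 143479 in the libraries labelled heterozygote. Astrocyte markers had 5 of 7 genes lower, with Gfap at a log2 fold change of -0.99, and their sums overlapped (42480 to 63378 and 35864.5 to 58225). S100b gave the most to that sum in every library, at 21758 to 32838.7 and 20788.5 to 39352.4 normalized counts. Gfap, Aqp4 and Aldoc were each lower without overlap, against 3.86% of all tested genes. S100b and Slc1a3 had positive signs, and none of the 7 passed the test. The 4 neutrophil markers in the table summed to 106.3 to 2346 and 649.1 to 6030 normalized counts, and the sums overlapped through Ltf, at 2176 in wild-type library 1. Of the 5 markers for brainstem and other central neurons only Gad1 was in the table, at 36.3 to 132.4 and 135.9 to 265.3 normalized counts. Its log2 fold change was 1.26 (limma-trend adjusted p 0.266), so it did not pass. All 5 osteoblast and osteocyte markers had positive log2 fold changes, with a median of 0.79. So did the 5 fibroblast markers, with a median of 0.16. All 5 macrophage markers had negative ones, with a median of -0.26. Hair cell markers and those of satellite and non-myelinating glia had both signs. In these lists no gene passed the test, and the sums overlapped between groups. The part of these cell types in the levels of the members was not tested.

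Levels between genes were compared per kilobase of the longest transcript. In wild type Stmn3 stood highest at 14222 ± 2652 normalized counts per kilobase, followed by Stmn1 at 5683 ± 1372, Map1a at 3023 ± 1061, Map1b at 2123 ± 447 and Stmn4 at 1515 ± 165 (SD, n = 4 each). Below these came Stmn2 at 1062 ± 123, Map2 at 901.1 ± 282, Mapt at 594 ± 79.7, Map6 at 509 ± 114 and Gap43 at 53.4 ± 13.9 normalized counts per kilobase. The ranges of neighbours in this order did not overlap between Stmn3 and Stmn1, Stmn4 and Stmn2, and Map6 and Gap43. All other neighbours overlapped. In the libraries labelled heterozygote Map1a (3954 ± 489.6) stood above Stmn1 (3327 ± 465), and Stmn4 (823.0 ± 66.3) stood in the seventh place, not the fifth, below Map2 (1054 ± 146) and Stmn2 (962 ± 76.1). The order depends on the transcript taken. With the principal transcript of Mapt, at 1362 bases, tau would stand at 2290.0 normalized counts per kilobase in wild type. With those of Stmn2 and Stmn4, at 2073 and 1303 bases, Stmn2 would stand at 1748 and Stmn4 at 1582, so their order turned and Stmn4 was seventh in wild type too.

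The wider set of microtubule regulators comprised 78 genes in 8 lists, of which 74 were tested. With limma-trend, 0 passed an adjusted p of 0.05 and limma-voom also called 0, while 16 of the 74 had an unadjusted p under 0.05, 10 of them higher and 6 lower, against 6.72% higher and 7.34% lower of all genes. Their median log2 fold change was 0.10, beside 0.02 over all tested genes, and 0.00 after correction for transcript length. The 14 end-binding proteins and cross-linkers, which guard the plus and minus ends of microtubules or tie them to actin, all had positive signs, with a median of 0.26. After correction for transcript length that median was 0.09. Macf1, a giant linker of microtubules and actin, had the smallest unadjusted p of that list, with 2461 to 3275 normalized counts in wild type and 3468 to 4101 in the libraries labelled heterozygote and a log2 fold change of 0.35 (limma-trend adjusted p 0.259). The groups did not overlap for Macf1, and after the length correction its log2 fold change was -0.03.

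Among the 18 tested other microtubule-associated proteins, Tppp3, a tubulin polymerisation-promoting protein, had the smallest p. Its values were 2782, 2256, 1684 and 2655 normalized counts in wild type and 1365, 1517, 1440.0 and 1200.1 in the libraries labelled heterozygote. The groups did not overlap, and the log2 fold change was -0.74 (limma-trend adjusted p 0.110). After correction for transcript length it was -0.59 with a limma-trend adjusted p of 0.0457. Tppp3 was the 1 of the 74 tested genes to pass there, in a fit that called 30 of all genes. Map7, a cofactor of kinesin-1, had a log2 fold change of -0.67 (limma-trend adjusted p 0.204), also without overlap. Tppp, the related protein of oligodendrocytes, had -0.41 (limma-trend adjusted p 0.278). Dcx and Map4 had -0.09 and -0.01, within the spread between libraries.

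The kinases and kinase activators acting on stathmins and MAPs had positive log2 fold changes in 12 of 15 cases, against 7771 of all 14870 tested genes, and none passed the threshold. Their median log2 fold change was 0.13, and 0.08 after correction for transcript length. Gsk3b, which phosphorylates tau and MAP1B, had the smallest unadjusted p, with a log2 fold change of 0.44 (limma-trend adjusted p 0.285). Of the 9 growth cone phosphoproteins related to GAP43 or to the collapsin response, 4 were higher and 5 lower. Dpysl2, for CRMP2, had the smallest unadjusted p at a log2 fold change of -0.38 (limma-trend adjusted p 0.259), and Dpysl3 had 0.26. Of the 6 tested severing proteins Spast, for spastin, had the smallest unadjusted p at -0.26 (limma-trend adjusted p 0.341). Among 4 palmitoyltransferases, enzymes that attach the lipid to stathmins and GAP43, Zdhhc15 had 0.51 (limma-trend adjusted p 0.379). Rest, a repressor of neuronal genes including Stmn2, had 0.21 (limma-trend adjusted p 0.644). Tardbp, for TDP-43, known for guarding the splicing of human STMN2, had -0.05. Of 6 tested nerve injury and regrowth genes none had an unadjusted p under 0.05. Gadd45a had the smallest, with a log2 fold change of -0.42 (limma-trend adjusted p 0.373).

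**Figure D5:**
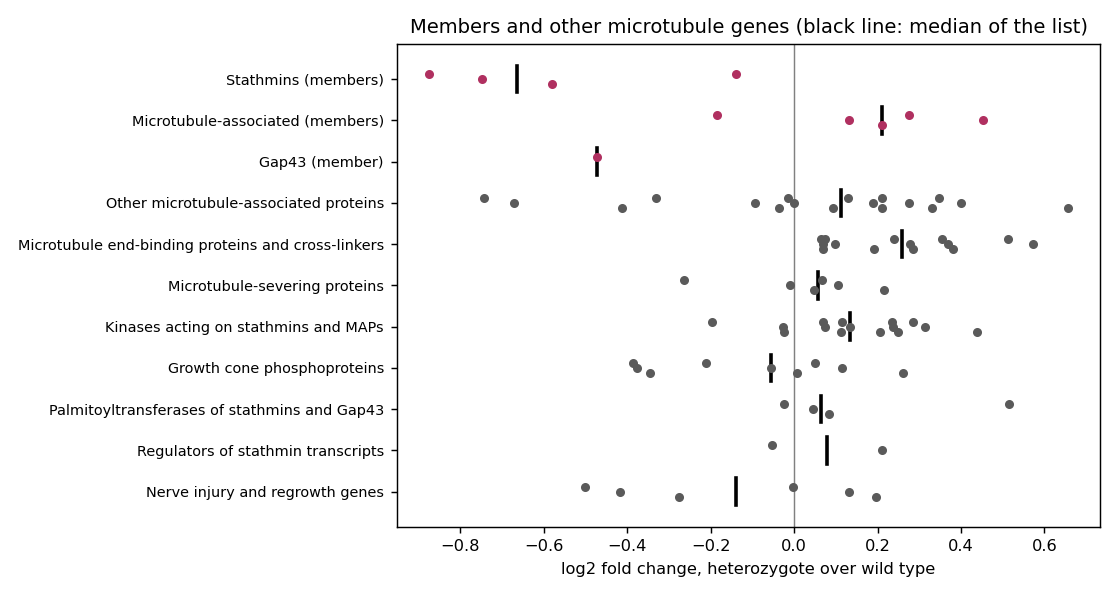
Log2 fold changes (horizontal axis, libraries labelled heterozygote over wild type) of the members (red) and of the tested genes of the 8 other lists (grey), 1 point per gene, with the median of each list as a black line. The stathmins lie left of 0 and the 14 end-binding proteins and cross-linkers lie right of 0, with a median of 0.26.

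The genes most like Stmn4 and Stmn2 were sought among all 14870 tested genes, by the root-mean-square difference over the 8 libraries between log2 values centred on each gene's mean. For Stmn4 they were Mbp (0.10), myelin basic protein, Mt2 (0.10), a metallothionein, Mag (0.12), a myelin adhesion protein, Tppp3 (0.13) and Aplp1 (0.14), an amyloid precursor-like protein. Stmn1 came in place 48 and Stmn3 in place 121, while Stmn2 came in place 3262. For Stmn2 the nearest were Klhdc2 (0.05), Fam81a (0.06), Dynlt3 (0.06), Reep5 (0.06) and Cfl2 (0.06), all with overlapping groups. Of the members, Mapt was the nearest to Stmn2, at 0.14 in place 627, and Map1a the farthest, at 0.47. Closeness to Stmn4 over these 8 libraries includes the difference between groups for which it was chosen.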

How the data were processed

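Per the labels' protocols, poly(A) RNA of microdissected auditory nerves went into a directional library kit after a check of RNA quality. The submitters' processing notes name STAR, Partek, DESeq2 and the build mm10, with no version or role. In the deposited table each library has a column of signal, which holds read counts divided by a size factor, as judged from the values. The authors' deposited comparison gives a p-value and FDR, a ratio, the log2 of that ratio and, left aside, a signed score for fold change, per the file headers. Groups came from the sample titles.

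The value of 1 read was estimated per library as the step of which 89.3% to 92.3% of values under 1000 were whole multiples, within 0.06. This is under 95%, so no negative binomial count test was used. A gene had to reach 10 normalized counts in 4 or more libraries, and all such genes entered limma-trend on log2(value + 1) over all 8 libraries, without covariates and with Benjamini-Hochberg adjustment over all 14870 genes. The fit was tested on simulated data. The length correction removed from each library a loess trend (span 0.5) on the longest GENCODE M21 transcript, matched by symbol for 97.6% of genes. Intervals are 95% intervals from the limma-trend error.

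The members and lists were chosen with earlier results of these data known. All members are named. Of each other list, genes past the threshold, or else the one with the smallest p, were to be named, and other names there were picked with the values in view. The groups share no sample number, so no pairing exists. Alternatives were limma-voom on estimated reads, pseudocounts of 0.1 and 10, other filters and scalings, 2 covariates, the length correction, and libraries left out. Protein sequences were not used here. R 4.3.3, limma 3.58.1, Python 3.11.15, numpy 2.4.6, pandas 2.3.3, scipy 1.17.1, Biopython 1.88 and matplotlib 3.10.9 were used.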

Additional observations from a re-analysis of the deposited data

Results flagged for a closer look

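In the libraries labelled heterozygote, Map1b had 1 library far from the other 3. Library 7 had 24840.2 normalized counts against 29679 to 30254, a gap of 0.894 of the group's whole range. Of 22 groups of 4 values checked in this way this was the 1 that stood out, and chance gives about 1.1. Without library 7 the log2 fold change of Map1b was 0.28 in place of 0.21.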

How the results depend on the processing

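No paired analysis was possible because the groups share no replicate numbers. Members other than Stmn4 called went from 0 to 2 with the leading component of the residual variation as a covariate (Stmn1 and Stmn3, limma-trend adjusted p 0.0268 and 0.0410, where 576 of all genes passed), and leaving out single libraries gave 0 to 1, the 1 being Stmn1 without wild-type library 3 (limma-trend adjusted p 0.0142, where 221 genes passed). Over 19 alternatives the limma-trend or limma-voom adjusted p of Stmn1 ran from 0.0142 to 0.531 and that of Stmn3 from 0.0410 to 0.610. Pathway genes called went from 0 to 10 with that covariate, to 1 with the length correction, and to between 0 and 2 without single libraries (2 without wild-type library 3). All tested genes called went from 12 to 7 with quantile normalization, 576 with the covariate, 30 with the length correction, and 0 to 221 without single libraries (0 without wild-type library 2 or 4 or library 8, 221 without wild-type library 3). Stmn4 kept its sign in all 19, from -0.95 to -0.72. Map1b turned to -0.073 with the length correction and Map6 to -0.022 without the 2 libraries low in Xist. The cause was not tested. Of the log2 fold changes of the members under all alternatives, Map1b and Map6 were the 2 that changed sign. Taking the principal transcript, a choice made after seeing the data, moved 3 of the 10 levels per kilobase. Gap43, at under 100 normalized counts, was the member with the least depth and the widest error.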
